A study of Mus musculus with 10 samples.

Results

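Bone marrow mesenchymal stromal cells of the preparation named MSC I were compared with those of the preparations MSC II, MSC III and MSC V. The samples were chosen by their titles, 2 arrays of MSC I against 6 arrays of the other 3 preparations, so that 8 of the 10 arrays of the study entered the difference and the 2 arrays of MSC IV did not. All cells came from female C57BL/6J mice aged 6 to 8 weeks and had been passaged 16 to 17 times in a commercial medium for mouse mesenchymal cells with penicillin, streptomycin and kanamycin. No treatment or genotype separated the preparations, and no preparation was labelled as a control. Total RNA was measured with an oligonucleotide array that reads along whole transcripts, and each of its 35399 probe sets gave a log2 expression value. A difference is the MSC I mean minus the unweighted mean of the MSC II, III and V means (the reference). It is given with its SE from a fit of preparation means over all 10 arrays. That SE rests on the spread between the 2 arrays of a preparation and not on the spread among MSC II, III and V. Whether the 2 arrays of a preparation came from separate cultures is not stated, so the spread between them may be technical.

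Stromal cells of the marrow are adherent, fibroblast-like cells that can mature into bone-forming osteoblasts or fat-storing adipocytes, and that feed blood stem cells with secreted factors. Osteoblasts are set up by transcription factors such as Sp7 and the Dlx proteins and lay down type I collagen and mineral-binding proteins. Adipocytes depend on Pparg and Cebpa and import, store and release fatty acids. Type I interferon acts on most cells: its signal, carried by factors such as Stat2 and Irf9, switches on genes for RNA sensors, antiviral effectors and antigen presentation.

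Of 19938 genes with a probe set of their own, 10971 had at least 2 of the 10 arrays above the table median of 6.55 log2 and were tested. A gene was called higher or lower where limma's Benjamini-Hochberg adjusted p was under 0.05 and the difference at least 1 log2, which is 2-fold. MSC I was called higher for 726 genes (6.62%) and lower for 535 (4.88%). Counts of called genes in the lists below are to be read beside these shares. Because MSC I was set apart from these 3 preparations with results of the same arrays in view, a call describes how the gap compares with the spread between replicate arrays and is no test of a difference fixed in advance. Both MSC I arrays lay above all 6 reference arrays for 658 of the genes called higher, and below all 6 for 448 of those called lower. Over all tested genes the same separation held for 1856 (16.9%) above and 2177 (19.8%) below. The median difference over all genes was -0.03. Of the genes called higher, 188 had passed the low-value filter only through MSC I, so they could enter the test only by being higher there, and 538 of 10754 remained without them. The difference was called against each of the 3 preparations taken singly for 432 genes higher in MSC I and 225 lower. A stricter comparison takes each preparation as 1 value and sets MSC I against the spread of the 3 reference preparations. It called 219 genes (2.00%) higher and 56 (0.510%) lower. Arrays of the same preparation correlated at 0.971 to 0.982 across genes, reference arrays of different preparations at 0.908 to 0.955, and MSC I arrays with reference arrays at 0.815 to 0.875.

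**Figure D1:**
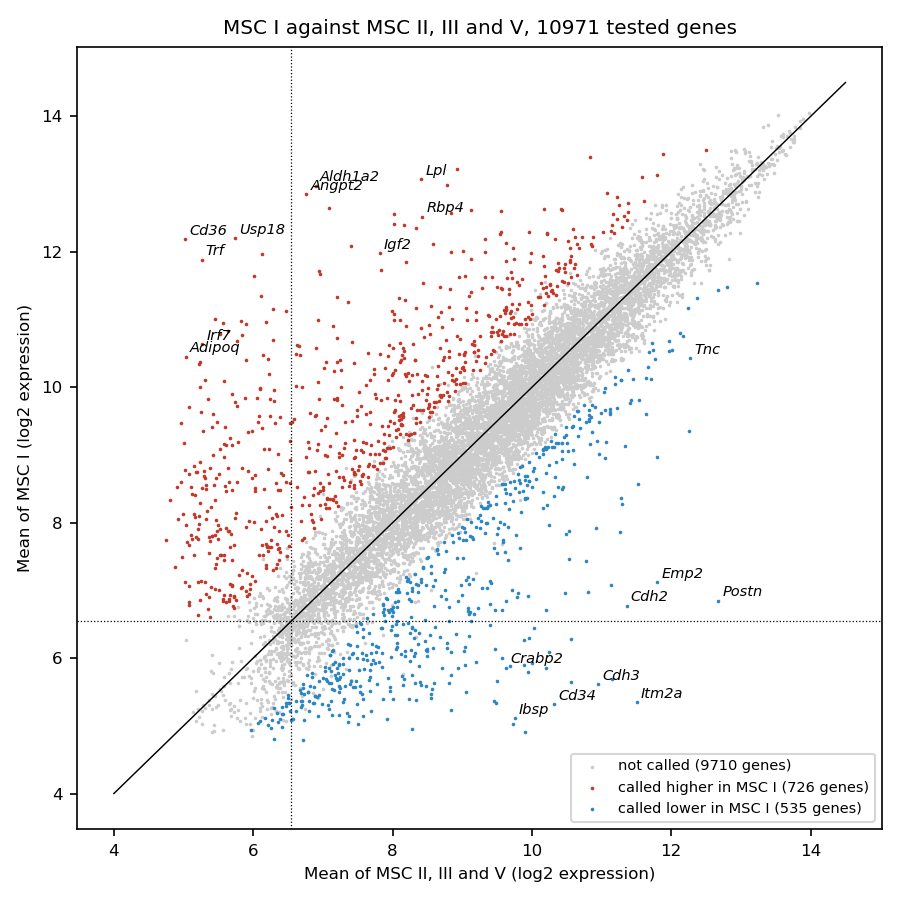
Mean log2 expression in MSC I (vertical axis) against the mean of MSC II, III and V (horizontal axis) for the 10971 tested genes. Red points are the 726 genes called higher in MSC I, blue points the 535 called lower, the solid line marks equal levels and the dotted lines the table median of 6.55. Many of the red points furthest from the line lie left of the dotted vertical line, where the reference level is close to the floor of the array.

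The arrays were checked for the labelled cell type. Of 15 tested surface markers used for mesenchymal stromal cells, Itgb1 (CD29) stood at 12.60 and 12.60 in MSC I and Pdgfrb at 12.33 and 12.07. Cd44 read 9.12 and 9.05. Endoglin (Eng) and Thy1, which are part of the usual definition, were under the table median in MSC I, at 5.71 and 5.85 and at 5.67 and 5.64. Eng was as low in the reference, at 5.57 to 5.76 (median 5.65), whereas it stood at 9.69 and 9.50 in MSC IV. The surface list gave 2 genes called higher and 3 lower in MSC I. It gave 1 higher and none lower with each preparation as 1 value. Mcam (CD146) read 10.90 and 11.25 in MSC I against 6.50 to 9.88 (median 7.92). Pdgfra read 12.23 and 10.68 in MSC I against 8.19 to 9.52 (median 8.88), and its difference of 2.64 ± 0.50 fell to 1.86 and lost its call without MSC I replicate 1. The 3 lower genes were Anpep (CD13) at -2.84 ± 0.18, Alcam (CD166) at -2.86 ± 0.52, and Nt5e (CD73) at -1.37 ± 0.31. Nt5e was not called without MSC I replicate 1, at -1.22. The stem cell antigen Cd34 is described with the largest differences.

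Markers of other cell types were read next. Of 14 macrophage markers, Ptprc, Adgre1, Csf1r and 9 more were under the table median on every array, and the log2 of their summed linear levels was 9.20 to 9.29 in MSC I against 9.29 to 9.93 in the reference. All 9 measured lymphocyte markers were under the table median on every array, with a summed level of 8.38 to 8.39 in MSC I and 8.33 to 8.41 in the reference. The same was true of 11 of 12 endothelial markers, Pecam1, Cdh5, Kdr and Tek among them, with a sum of 8.77 to 8.79 against 8.73 to 8.97. Mean levels in MSC I were 5.26 to 5.34 for the macrophage list and 5.16 to 5.17 for both the lymphocyte and the endothelial list. They lie near the array floor, so these MSC I sums are mostly background. Muscle and neural markers gave no tested gene. In the list of granulocyte, mast cell and erythroid markers 9 of 10 measured genes were under the table median on every array. The exception was Kit, the receptor of stem cell factor, at 10.52 and 10.16 in MSC I against 4.94 to 5.47 (median 5.23). Kit had passed the low-value filter through MSC I alone. The summed level of the list was 10.54 to 10.84 in MSC I, above the 8.45 to 8.61 of the reference. Kit made up most of that MSC I sum, so the sum does not show a rise across the list. The part of granulocytes, mast cells and erythroid cells in the results was not tested. In bulk RNA of this kind, fewer cells of a type and less RNA per cell cannot be told apart.

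Genes were ranked by their difference among called genes with both MSC I arrays outside the range of the 6 reference arrays. The largest differences were found for genes that read close to the floor in the reference and high in MSC I. Cd36, the fatty acid transporter and scavenger receptor, read 12.29 and 12.07 in MSC I against 4.89 to 5.10 (median 5.03) on the 6 reference arrays. Its difference was 7.17 ± 0.10, a fold of 144. Trf, the iron carrier transferrin, read 12.37 and 11.40 in MSC I against 5.11 to 5.48 (median 5.24), a difference of 6.63 ± 0.24. Usp18, which removes the modifier Isg15 from proteins and restrains the interferon receptor, read 12.17 and 12.24 in MSC I against 5.19 to 6.37 (median 5.80), a difference of 6.47 ± 0.13. All 3 genes were also low in MSC IV, with Cd36 at 5.02 and 5.11, Trf at 5.18 and 5.48 and Usp18 at 5.02 and 5.07. All 3 had passed the low-value filter through MSC I alone, so they could enter the test only by being higher there. Values of about 5 lie near the array floor, where differences between low levels are compressed, so these folds depend on that floor.

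Further genes followed among the 15 largest differences. Angpt2, a ligand of the endothelial receptor Tie2, read 12.98 and 12.72 in MSC I against 6.10 to 8.22 (median 6.20), a difference of 6.09 ± 0.14. Aldh1a2, which makes retinoic acid, read 12.55 and 13.41 in MSC I against 5.36 to 8.21 (median 6.97), a difference of 6.08 ± 0.47. Among the reference preparations Angpt2 was highest in MSC V and Aldh1a2 in MSC III and MSC V. Rarres2, the precursor of the chemoattractant chemerin, had a difference of 5.63 ± 0.27. Serping1, the inhibitor of the complement protease C1, had one of 5.55 ± 0.26, and lost its call with each preparation as 1 value, where the standard error was 0.98. The amino acid transporter Slc38a4 read 12.01 and 11.92 in MSC I against 5.29 to 7.42 (median 5.79). Slc38a4 was also high in MSC IV, at 10.76 and 10.78, a level that no reference array reached. Gnai1, an inhibitory G protein subunit, read 10.80 and 11.21 in MSC I against 5.05 to 5.82 (median 5.52), with MSC IV between them at 8.58 and 8.97. The vasopressin receptor Avpr1a differed by 5.19 ± 0.35 and the aldehyde dehydrogenase Aldh1a7 by 5.16 ± 0.32. Rarres2, Avpr1a and Aldh1a7 had passed the low-value filter through MSC I alone. So had Adipoq, H2-Q4, Irf7 and Trim30a, which are described with their groups.

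Genes whose MSC I mean and reference mean both lay above the table median were ranked separately. A single reference preparation could still lie under it. Its mean was 6.11 in MSC II and 6.20 in MSC III for Angpt2, 5.75 in MSC II for Aldh1a2 and 5.91 in MSC V for Serping1. Besides Angpt2, Aldh1a2 and Serping1, the 10 largest of this kind included Thbd, Mgst1 and Hp. Thrombomodulin (Thbd), an anticoagulant surface receptor, read 12.49 and 12.33 in MSC I against 6.95 to 9.59 (median 7.66). Mgst1, a membrane-bound glutathione transferase, read 13.13 and 13.32 in MSC I against 8.19 to 10.31 (median 8.76). Haptoglobin (Hp), which binds free haemoglobin, read 12.56 and 12.21 in MSC I against 6.93 to 9.18 (median 8.16). The differences were 4.40 ± 0.25, 4.30 ± 0.28 and 4.23 ± 0.44. Thbd and Mgst1 lost their calls with each preparation as 1 value, with standard errors of 0.84 and 0.62, and so did Ifit3, with one of 0.66. That none of the 6 reference arrays reached an MSC I array was a condition of this ranking too. Oasl2, Rtp4, Ifit3 and Lpl complete this set and are described with their groups.

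**Figure D2:**
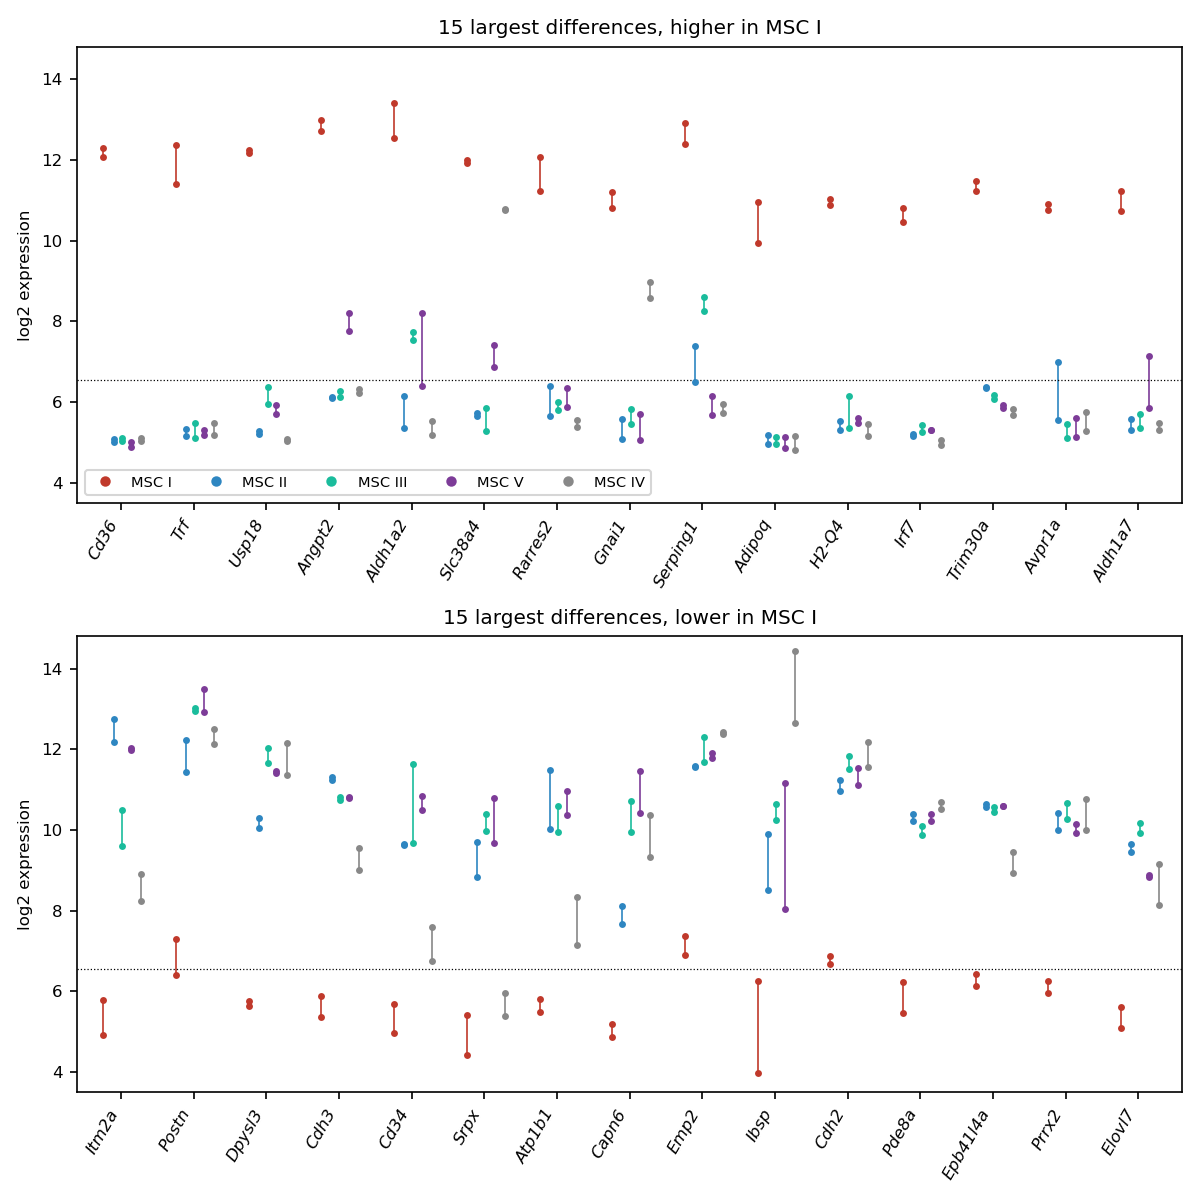
Log2 expression on each array of the 15 genes with the largest difference in each direction. Each pair of joined points is the 2 arrays of 1 preparation, coloured by preparation, and the dotted line is the table median of 6.55. The red MSC I points lie above those of MSC II, III and V in the upper panel and below them in the lower, which the choice of genes required. The grey MSC IV points lie closest to MSC I for Slc38a4 and Srpx.

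Itm2a was the gene with the largest difference in the other direction. Itm2a, a membrane protein found in bone and cartilage precursors, read 5.78 and 4.92 in MSC I against 9.61 to 12.75 (median 12.000), a difference of -6.16 ± 0.33. It was not called with each preparation as 1 value, where the standard error was 0.99. Periostin (Postn), a matrix protein of periosteum and other connective tissue, read 7.30 and 6.40 in MSC I against 11.44 to 13.48 (median 12.93), a difference of -5.83 ± 0.30. Within the reference, Itm2a was lowest in MSC III and Postn in MSC II, and both MSC I arrays were far under these. Cdh3 (P-cadherin) read 5.37 and 5.87 in MSC I against 10.74 to 11.31 (median 10.81) and Cdh2 (N-cadherin) 6.88 and 6.67 in MSC I against 10.96 to 11.82 (median 11.37). The differences were -5.33 ± 0.18 and -4.58 ± 0.20, and the 6 reference arrays lay within 1 log2 of each other for both. Cd34, a sialomucin used as a progenitor marker, read 5.69 and 4.96 in MSC I against 9.62 to 11.62 (median 10.09). Cd34 was intermediate in MSC IV, at 7.60 and 6.76. The matrix protein Srpx read 5.40 and 4.43 in MSC I against 8.83 to 10.79 (median 9.84), and MSC IV was close to MSC I, at 5.96 and 5.39.

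Of the other large negative differences, Dpysl3, a regulator of the cytoskeleton, differed by -5.46 ± 0.21 and Atp1b1, a subunit of the sodium pump, by -4.92 ± 0.45. The non-proteolytic calpain Capn6 differed by -4.70 ± 0.38, the membrane protein Emp2 by -4.68 ± 0.18 and the cyclic AMP phosphodiesterase Pde8a by -4.35 ± 0.20. Prrx2, a homeobox gene of limb mesenchyme, differed by -4.15 ± 0.23, Epb41l4a by -4.29 ± 0.15 and the fatty acid elongase Elovl7 by -4.14 ± 0.26. The ranking took only genes with both MSC I arrays below all reference arrays, so that separation in these 8 genes was given by the choice. Among genes with the MSC I mean and the reference mean above the table median, Ndrg1 read 6.74 and 7.22 in MSC I against 10.25 to 11.37 (median 10.79). The lactate exporter Slc16a3 read 7.41 and 7.52 in MSC I against 9.89 to 11.49 (median 10.31). Further members of that set were fibrillin-2 (Fbn2, -3.51 ± 0.53), the collagen hydroxylase P3h2 (-3.34 ± 0.39), the endoplasmic reticulum protein Retreg1 (-3.48 ± 0.12) and the transcription cofactor Eya2 (-3.03 ± 0.15). Cdsn was at -3.40 ± 0.77, and its call was lost without either MSC I array, at -3.17 and -3.64. Capn6, Slc16a3, Fbn2, P3h2, Eya2 and Cdsn were not called with each preparation as 1 value, with standard errors of 1.24, 0.45, 0.54, 0.75, 0.84 and 0.80.

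Interferon-stimulated genes carry a short promoter element, the interferon-stimulated response element, at which Stat2 and Irf9 act. The letters GAAANNGAAA, on either strand, were searched in RefSeq promoter windows (GRCm38.p6) of 300 bases, from 250 before to 50 after the transcription start. Among genes of the interferon and class I lists called higher in MSC I, 32 of 41 had a window and 13 of these (40.6%) held the letters. They were in 3.99% of 27025 genes with a window, in 3.56% of the tested genes, in 9.71% of all genes called higher and in 4.10% of those called lower. Of the listed genes that were tested and not called higher, 4 of 21 (19.1%) held them, and among called genes outside these lists 41 of 524 (7.82%). A match of letters is a description and not a binding site. The 250 bases before the start are shown for the 3 listed genes with a match and the largest differences, with the matched letters in capitals, and a match on the other strand reads as the reverse complement:

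Trim30a, chr7:104465194-104465443, minus strand: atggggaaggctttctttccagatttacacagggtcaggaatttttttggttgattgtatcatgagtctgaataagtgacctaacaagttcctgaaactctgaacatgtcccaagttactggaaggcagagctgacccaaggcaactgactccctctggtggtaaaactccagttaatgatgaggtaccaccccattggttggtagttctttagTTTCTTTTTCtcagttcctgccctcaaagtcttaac

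Ifit3, chr19:34583279-34583528, plus strand: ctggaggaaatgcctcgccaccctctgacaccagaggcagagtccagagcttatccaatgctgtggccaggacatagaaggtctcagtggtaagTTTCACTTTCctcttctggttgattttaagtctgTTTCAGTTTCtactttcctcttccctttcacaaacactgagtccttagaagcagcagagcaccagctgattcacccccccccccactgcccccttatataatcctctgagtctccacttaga

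Ifit1, chr19:34640639-34640888, plus strand: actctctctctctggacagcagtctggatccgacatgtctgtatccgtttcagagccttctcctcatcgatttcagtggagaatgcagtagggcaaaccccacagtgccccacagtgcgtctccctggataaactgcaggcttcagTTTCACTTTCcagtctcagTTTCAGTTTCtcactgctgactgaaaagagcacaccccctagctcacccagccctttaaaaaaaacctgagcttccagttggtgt

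Ifit3 and Ifit1 held 2 matches each, Trim30a 1. For the other 10 genes, the match furthest downstream is shown within 30 bases, in order of the difference, and capitals longer than 10 letters are overlapping matches:

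Ifih1, chr2:62646206-62646235, minus strand: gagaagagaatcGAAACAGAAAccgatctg

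Rsad2, chr12:26456553-26456582, minus strand: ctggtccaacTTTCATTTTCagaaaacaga

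Gbp3, chr3:142559995-142560024, plus strand: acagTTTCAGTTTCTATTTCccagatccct

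Bst2, chr8:71537577-71537606, minus strand: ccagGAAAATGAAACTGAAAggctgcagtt

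Oas1a, chr5:120907520-120907549, minus strand: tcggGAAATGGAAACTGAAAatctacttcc

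Gbp7, chr3:142530273-142530302, plus strand: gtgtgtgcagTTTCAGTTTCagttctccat

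Ddx58, chr4:40239804-40239833, minus strand: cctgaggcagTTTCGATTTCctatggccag

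Eif2ak2, chr17:78882535-78882564, minus strand: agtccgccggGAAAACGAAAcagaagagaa

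Stat2, chr10:128270266-128270295, plus strand: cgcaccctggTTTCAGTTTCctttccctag

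Erap1, chr13:74639839-74639868, plus strand: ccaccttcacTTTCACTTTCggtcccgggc

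The interferon genes are described by role, from signalling to effectors. Of 20 listed ligands, receptors and signalling genes, 14 were tested, 5 were under the filter and 1 was not analysed here. MSC I was called higher for 6 of the 14 and lower for none, with a median difference of 0.67. Without 2 that passed the filter through MSC I alone it was 4 of 12, and 4 of the 14 were called with each preparation as 1 value. The ligands Ifnb1, Ifna4 and Ifng were under the filter. The receptor chains Ifnar1 and Ifnar2 differed by -0.08 ± 0.11 and 0.25 ± 0.09, without a call. Irf7, the factor that drives further interferon production, read 10.81 and 10.47 in MSC I against 5.15 to 5.42 (median 5.27), a difference of 5.37 ± 0.12. Irf9 read 10.69 and 10.47 in MSC I against 8.46 to 8.92 (median 8.64) and Stat2 10.07 and 9.71 in MSC I against 8.09 to 8.55 (median 8.30), with differences of 1.90 ± 0.13 and 1.61 ± 0.15. Both Irf9 and Stat2 were clearly expressed in all preparations, and MSC I was above every reference array. The remaining called members were Usp18, the feedback inhibitor Socs3 (1.17 ± 0.23) and the interferon-gamma receptor chain Ifngr1 (1.11 ± 0.15). Socs3 lost its call without MSC I replicate 2, at 1.05, and Ifngr1 without MSC I replicate 1, at 0.89. The kinase Jak2, at -0.81 ± 0.22, was called lower with MSC V left out of the reference, at -1.12.

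Among 10 tested sensors of foreign nucleic acid, 6 were called higher and none lower, with a median of 1.43. Without 2 that passed the filter through MSC I alone it was 4 of 8, and each preparation as 1 value gave 4 of the 10. Ifih1 (MDA5), a sensor of long double-stranded RNA, read 10.50 and 10.71 in MSC I against 6.48 to 6.90 (median 6.63), a difference of 3.94 ± 0.17. Ddx58 (RIG-I) read 11.70 and 11.56 in MSC I against 9.07 to 9.56 (median 9.49), a difference of 2.20 ± 0.12. Dhx58, the third member of that helicase family, differed by 3.89 ± 0.13. MSC IV lay below the reference arrays for all 3, with Ifih1 at 5.65 and 6.13, Ddx58 at 8.10 and 7.92 and Dhx58 at 5.51 and 5.49. Zbp1, a sensor of Z-form nucleic acid, differed by 3.47 ± 0.13, the RNA-activated kinase Eif2ak2 (PKR) by 1.69 ± 0.16 and Tlr3 by 1.18 ± 0.15. The DNA-sensing enzyme Cgas, its adaptor Sting1, the adaptor Mavs and Trim25 were not called, at 0.40 ± 0.21, 0.89 ± 0.19, 0.24 ± 0.13 and 0.99 ± 0.09. Trim25 lay just under the 1 log2 limit and was called with MSC II left out of the reference, at 1.11.

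Of 29 effector genes, 23 were tested and MSC I was called higher for 20, with a median of 2.94. Both MSC I arrays lay above all reference arrays for 22 of the 23, against 16.9% of all tested genes. Because 7 of the 23 had passed the filter through MSC I alone, the count without them was 13 of 16. Taking each preparation as 1 value left 13 of the 23 called. Trim30a, a regulator of inflammatory signalling, read 11.22 and 11.48 in MSC I against 5.86 to 6.36 (median 6.12), a difference of 5.24 ± 0.10. Oasl2 read 11.74 and 11.71 in MSC I against 6.56 to 7.66 (median 6.86) and Rtp4 11.66 and 11.68 in MSC I against 6.27 to 7.50 (median 7.13). Ifit3 read 12.87 and 12.25 in MSC I against 7.35 to 9.28 (median 7.69) and Ifit1 11.14 and 11.53 in MSC I against 6.04 to 8.14 (median 7.34), with the highest reference values in MSC V for both. The Ifit proteins bind foreign RNA and block its translation. Differences for Ifit3 and Ifit1 were 4.55 ± 0.23 and 4.13 ± 0.27. Rsad2 (viperin) differed by 3.54 ± 0.10, Cmpk2 by 3.57 ± 0.09, Parp14 by 3.41 ± 0.18 and Bst2 (tetherin), which holds budding virus at the cell surface, by 3.10 ± 0.32. Oas1a, which makes the 2-5A signal that activates RNase L, differed by 2.84 ± 0.11. Ifit2 was called at 1.06 ± 0.17, but not with MSC III left out of the reference (0.92) or without MSC I replicate 2 (1.00). The 3 members not called were Ifitm3 at 0.48 ± 0.16, Isg20 at 0.25 ± 0.12 and Ifitm1 at 0.22 ± 0.35. Ifitm3 was already near the top of the array's range, at 13.12 to 13.61 (median 13.46) in the reference.

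The guanylate-binding and immunity-related GTPases did not all go one way. These proteins attack the membranes around intracellular pathogens. Of 6 tested genes 3 were called higher, all of which had passed the filter through MSC I alone: Iigp1 at 10.22 and 9.79 in MSC I against 5.14 to 5.31 (median 5.24), Gbp3 with a difference of 3.43 ± 0.11 and Gbp7 with one of 2.79 ± 0.14. Gbp9 was called lower at -1.52 ± 0.15, and MSC II stood apart: it read 9.33 and 9.56, against 5.58 and 5.10 in MSC I and 5.62 and 5.94 in MSC III. With MSC II left out of the reference the difference of Gbp9 was -0.24 and not called. Gbp9 also lost its call with each preparation as 1 value, where the 3 higher calls stayed. Gbp4 had the same pattern, with MSC II at 7.64 and 8.57 and MSC I at 5.41 and 5.09. It was not called, but was called lower with MSC III or MSC V left out of the reference, at -1.41 and -1.44, which made 2 lower calls in this list. Irgm1 differed by 0.30 ± 0.44, and its arrays overlapped.

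In class I antigen presentation, 6 of 14 tested genes were called higher and none lower, with a median of 0.86. Without 3 that passed the filter through MSC I alone it was 3 of 11, and 4 of the 14 were called with each preparation as 1 value. H2-Q4, a non-classical class I chain, read 10.87 and 11.03 in MSC I against 5.30 to 6.15 (median 5.51). The classical chains H2-K1 and H2-D1 were not analysed here, and the shared light chain B2m, already near the top of the range, differed by 0.49 ± 0.09, without a call. Tap1, which pumps peptides into the endoplasmic reticulum, read 9.57 and 9.38 in MSC I against 6.27 to 6.77 (median 6.47), a difference of 2.95 ± 0.17. The immunoproteasome subunits Psmb8 and Psmb9 differed by 2.57 ± 0.18 and 1.52 ± 0.10, and the third, Psmb10, by 0.83 ± 0.16, without a call. The trimming peptidase Erap1 differed by 1.57 ± 0.09 and Nlrc5, the activator of class I genes, by 1.16 ± 0.14. Genes of the H2-Q, Ifit, Trim30, Oas and Gbp families have close relatives, and probes may pick up more than 1 of them, so the share of each is uncertain. Summed levels of macrophage and lymphocyte markers are given above, and the part of such cells in the interferon and class I results was not tested.

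**Figure D3:**
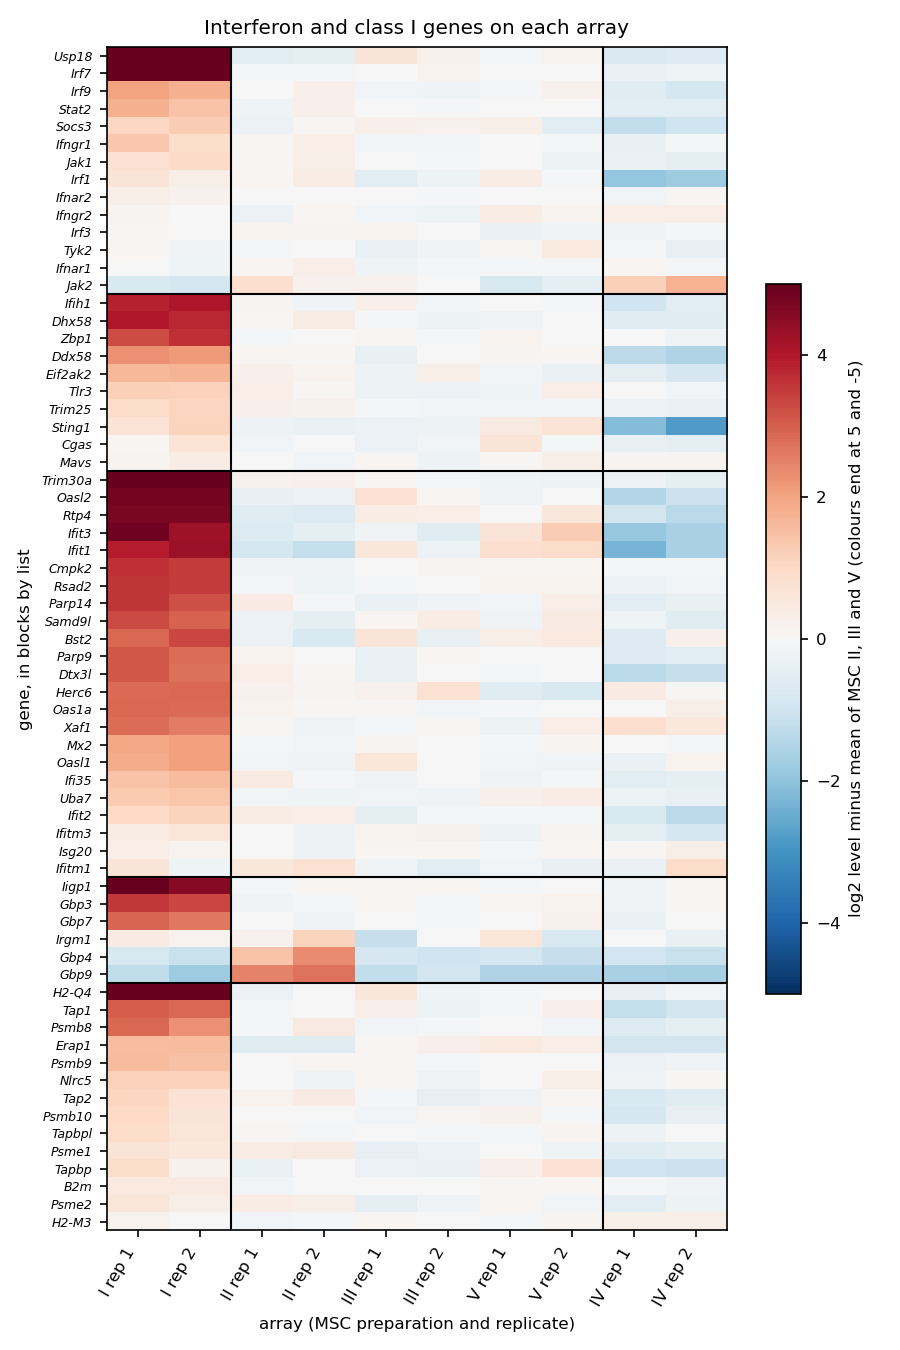
Log2 level minus the mean of MSC II, III and V for each array (columns) and each tested gene of 5 lists (rows, in blocks from top to bottom: signalling, sensors, effectors, GTPases, class I), red for higher and blue for lower. The MSC I columns at the left are red through most of the effector block, where 20 of 23 genes were called higher. The lowest rows of the GTPase block, Gbp4 and Gbp9, are red in MSC II alone.

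Of 12 tested chemokines and related cytokines 7 were called higher and none lower, with a median of 2.01, and 9 listed genes, Tnf, Il1b and Lif among them, were under the filter. Without 3 that passed the filter through MSC I alone it was 4 of 9. Cxcl10, which attracts activated T cells, read 12.02 and 12.68 in MSC I against 6.97 to 9.69 (median 8.30), a difference of 4.02 ± 0.41. Ccl2, which attracts monocytes, read 12.13 and 13.004 in MSC I against 6.46 to 10.75 (median 8.92), a difference of 3.73 ± 0.59. In the reference both chemokines were lowest in MSC II and higher in MSC III and MSC V. Il6 read 8.11 and 9.32 in MSC I against 4.92 to 6.73 (median 5.32), with replicate 2 of MSC I above replicate 1. Cxcl14 read 10.10 and 10.66 in MSC I against 5.01 to 5.37 (median 5.22). Ccl7 differed by 2.50 ± 0.44, Cxcl9 by 2.25 ± 0.18 and Ccl5 by 1.78 ± 0.30. Cxcl12, the chemokine that holds blood stem cells in the marrow, was high throughout, at 12.93 and 12.33 in MSC I against 11.98 to 12.88 (median 12.49), and differed by 0.15 ± 0.25. MSC IV was low for Cxcl12, at 9.51 and 9.25. Each preparation taken as 1 value gave 3 calls among the 12.

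Complement genes gave 3 calls higher and none lower among 7 tested. Without 2 that passed the filter through MSC I alone it was 2 of 5, and with each preparation as 1 value Rarres2 alone kept a call. Another 9 listed genes, Cfb and C4b among them, were under the filter, and C3 was not analysed here. Besides Rarres2 and Serping1, the called gene was Cd59a, which blocks the terminal complement pore. Cd59a was not a matter of MSC I alone: it read 10.33 and 10.53 in MSC I, 11.002 and 10.88 in MSC II, 6.81 and 6.98 in MSC III, 6.87 and 6.41 in MSC V and 10.83 and 11.05 in MSC IV. The proteases C1ra and C1s1 differed by 0.00 ± 0.28 and -0.06 ± 0.43.

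Fat-related genes formed the other large group higher in MSC I. Of 25 genes of fatty acid uptake, lipid droplets and adipokines 22 were tested, and 15 were called higher and none lower, with a median of 2.05. Without the 6 that passed the filter through MSC I alone, 9 of 16 were called. Adiponectin (Adipoq), a hormone of adipocytes, read 10.97 and 9.94 in MSC I against 4.86 to 5.17 (median 5.04), a difference of 5.42 ± 0.25. Resistin (Retn) read 10.88 and 8.69 in MSC I against 5.28 to 7.23 (median 5.51), with replicate 1 of MSC I more than 2 log2 above replicate 2, which lay above replicate 2 of MSC II, the highest reference array. Lipoprotein lipase (Lpl), which frees fatty acids from lipoproteins, read 13.17 and 12.98 in MSC I against 7.01 to 9.87 (median 8.77), and the fatty acid carrier Fabp4 11.96 and 11.72 in MSC I against 6.30 to 9.92 (median 8.49). Differences were 4.67 ± 0.71 and 3.66 ± 0.40, and the reference arrays spread over more than 2 log2 for each. Of the lipid droplet coats, Plin4 differed by 4.07 ± 0.41, Plin1 by 3.18 ± 0.33 and Cidec by 3.64 ± 0.13, while Plin2, found on droplets of most cells, differed by 0.50 ± 0.12 without a call. The lipases Pnpla2 and Lipe differed by 2.15 ± 0.20 and 1.94 ± 0.31. Gpd1 differed by 2.97 ± 0.24, Apoe by 2.90 ± 0.16 and Agpat2 by 1.39 ± 0.16. Enzymes of fatty acid synthesis and the last step of fat assembly were not called, with Fasn at 0.21 ± 0.18, Acaca at -0.32 ± 0.15, Scd1 at 0.88 ± 0.21, Dgat1 at 0.83 ± 0.14 and Dgat2 at -0.07 ± 0.22. Fabp5 was called at 1.30 ± 0.29, but not with MSC II left out of the reference (0.81) or without MSC I replicate 2 (1.02). Cd302, also counted among the 15, is a lectin receptor and not a gene of fat uptake, lipid droplets or adipokines. Cd302 was called at 1.04 ± 0.14 and lost the call without MSC I replicate 1, at 0.85.

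Of 13 tested adipocyte transcription factors 4 were called higher and 1 lower, with a median of 0.33. Without 1 that passed the filter through MSC I alone, 3 were called higher. Pparg, the central regulator, was high in all preparations and higher in MSC I, at 12.91 and 12.72 in MSC I against 10.65 to 11.66 (median 11.27), a difference of 1.59 ± 0.22. Cebpa, its partner, read 10.81 and 10.002 in MSC I against 6.36 to 7.74 (median 7.46), a difference of 3.16 ± 0.21. Nr1h3 (LXR-alpha) read 9.15 and 9.22 in MSC I against 5.53 to 6.18 (median 5.71). MSC I was above all reference arrays for these 3. Ebf1 was called at 1.34 ± 0.30, and the call was lost with MSC V left out of the reference (0.88) and without either MSC I array (1.40 and 1.28). The early factors Cebpb and Cebpd differed by 0.33 ± 0.24 and -0.80 ± 0.19, without a call, and Klf5 was called lower at -1.38 ± 0.16. Cebpd joined it as a lower call without MSC I replicate 2, at -1.03. When each preparation was 1 value, 1 of these 13 factors and 11 of the 22 fat genes were called higher. The letters AGGTCANAGGTCA, a site type bound by Pparg with Rxra, were in none of the 15 called fat genes with a promoter window and in 13 of 27025 genes, which says only that these letters are not in these windows. Cd36 and Lpl are also made by macrophages and endothelium, whose summed marker levels are given above, and the part of such cells in these results was not tested.

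Of 13 tested iron genes 1 was called higher, transferrin, and none lower, beside 6.62% and 4.88% of all tested genes. Transferrin had passed the filter through MSC I alone, so no higher call remained without it. The transferrin receptor Tfrc differed by -0.60 ± 0.24, the exporter Slc40a1 by -0.14 ± 0.54, and the ferritin chains Fth1 and Ftl1, near the top of the range, by 0.04 ± 0.09 and 0.23 ± 0.09. Steap4, a metalloreductase, read 5.04 and 5.45 in MSC I against 5.29 to 8.13 (median 6.77) and was called lower at -2.10 with MSC II left out of the reference and also without either MSC III array.

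Retinoic acid genes were split. Of 10 tested, 3 were called higher and 2 lower, and with each preparation as 1 value 3 higher and none lower. Without 1 that passed the filter through MSC I alone, 2 were called higher. On the side of supply and response, besides Aldh1a2, the retinol carrier Rbp4 read 11.99 and 13.05 in MSC I against 7.77 to 9.28 (median 8.21) and the receptor Rarb, itself induced by retinoic acid, 8.20 and 8.82 in MSC I against 5.60 to 6.53 (median 6.01). The cellular binding protein Crabp2 was low, at 5.80 and 5.92 in MSC I against 8.04 to 10.85 (median 9.82), a difference of -3.77 ± 0.19, and MSC II was the highest for it. Crabp1 was called at -1.46 ± 0.41, with overlap of the arrays, and lost the call with MSC II left out of the reference (-0.62) and without either MSC I array (-1.19 and -1.74). The receptors Rara and Rarg differed by -0.06 ± 0.19 and -0.21 ± 0.10. The degrading enzymes Cyp26a1 and Cyp26b1 were under the filter.

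Among factors that support blood stem cells, 5 of 15 tested genes were called higher and 1 lower, with a median of 0.94. Besides Angpt2, its relative Angpt1, the activating Tie2 ligand, read 12.05 and 10.47 in MSC I against 6.38 to 9.05 (median 7.24), a difference of 3.91 ± 0.57. Jag1, a Notch ligand, read 10.57 and 11.41 in MSC I against 7.11 to 8.74 (median 8.13), a difference of 2.98 ± 0.35. Stem cell factor (Kitl), the ligand of Kit, read 12.14 and 11.13 in MSC I against 8.12 to 10.28 (median 9.55). For Angpt1 and Kitl replicate 1 of MSC I was at least 1 log2 above replicate 2, and without replicate 1 the difference of Kitl went from 2.30 to 1.80 and was not called. Tnfrsf11b (osteoprotegerin) was called at 1.21 ± 0.24, but MSC II alone was low, at 8.68 and 8.34, and without MSC II in the reference the difference was 0.16. It was 0.80, and not called, without MSC I replicate 2. Pleiotrophin (Ptn) was called lower at -2.92 ± 0.69, and not without MSC I replicate 2, at -2.21. The leptin receptor Lepr, a marker of niche stroma, differed by -0.96 ± 0.45 and was called lower without MSC III replicate 1, at -1.23. Vcam1 differed by 0.94 ± 0.26, Csf1 by -0.39 ± 0.19 and Tnfsf11 (RANKL) by -0.34 ± 0.14. When each preparation was 1 value, 1 of the 15 was called.

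Regulators of the osteoblast lineage were called in both directions. Of 9 tested transcription factors 4 were called lower and 2 higher, with a median of -0.63, and Runx2 was not analysed here. Each preparation as 1 value gave 2 lower and 1 higher. Dlx5 read 6.47 and 5.32 in MSC I against 8.80 to 10.80 (median 9.99), a difference of -3.99 ± 0.42, and its neighbour Dlx6 5.56 and 5.37 in MSC I against 7.74 to 8.97 (median 8.64), a difference of -3.09 ± 0.26. Msx2 differed by -1.94 ± 0.22. Sp7 (osterix), required for osteoblast formation, read 6.39 and 4.82 in MSC I against 7.29 to 9.13 (median 8.05). Its difference of -2.55 was -1.76 and not called without MSC I replicate 2. MSC IV was above the reference for Sp7, at 12.80 and 11.38, and for Dlx5, at 11.78 and 11.06. The 2 called higher were Lef1, a partner of beta-catenin, at 2.27 ± 0.23, and Twist2 at 2.41 ± 0.48. Twist2 was not called without MSC I replicate 1, at 2.30.

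Of 12 tested bone matrix and mineralisation genes, 3 were called lower and none higher, with a median of -0.81, and 2 were called lower with each preparation as 1 value. Periostin is given above. Bone sialoprotein (Ibsp), which binds mineral, read 6.27 and 3.97 in MSC I against 8.04 to 11.17 (median 10.07), and its difference of -4.64 ± 0.95 was -3.49 and not called without MSC I replicate 2. Of the type I collagen chains, Col1a2 was called lower at 11.01 and 10.49 in MSC I against 11.63 to 12.50 (median 12.25), whereas Col1a1 at 11.62 and 10.71 in MSC I against 11.30 to 12.20 (median 11.78) overlapped the reference and was not called. Alkaline phosphatase (Alpl) read 10.54 and 9.45 in MSC I against 6.53 to 11.79 (median 8.99), with no separation. For Dmp1, Phex, Omd and Phospho1 replicate 1 of MSC I lay at least 1.5 log2 above replicate 2, and without replicate 1 the count of bone matrix genes called lower was 6 in place of 3. Mepe was under the filter, and Spp1 and Bglap were not analysed here. The mineralisation genes Ibsp, Phospho1 and Ifitm5 were highest in MSC IV, at 14.45 and 12.64, 11.83 and 12.03 and 10.02 and 11.85.

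**Figure D4:**
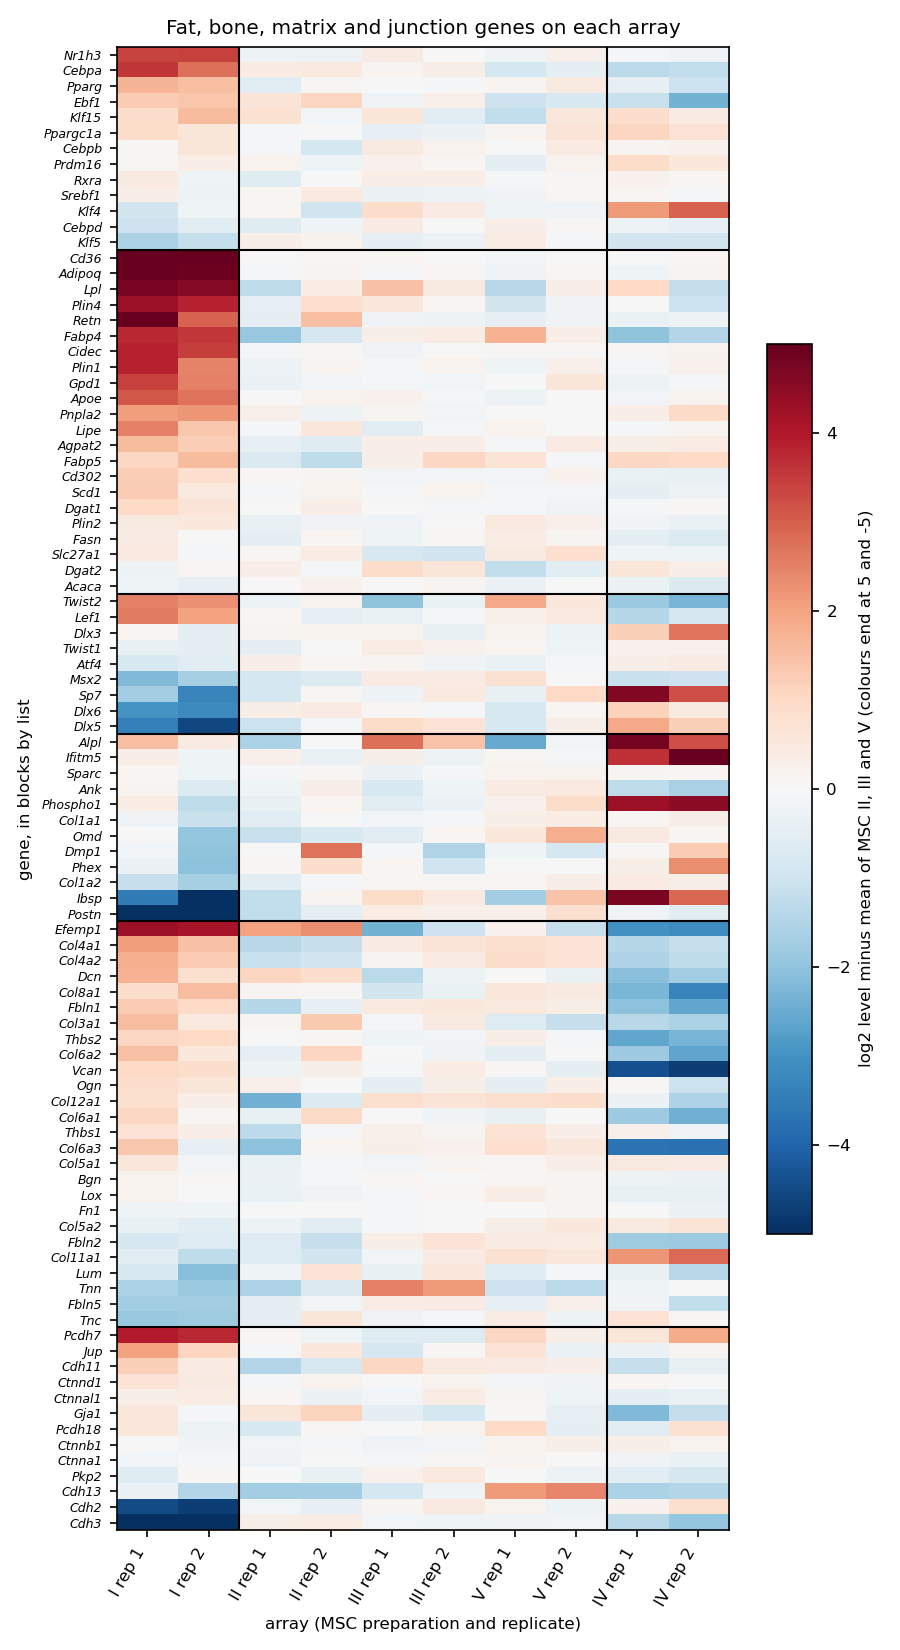
Log2 level minus the mean of MSC II, III and V for each array (columns) and each tested gene (rows) of 6 lists, in blocks from top to bottom: adipocyte factors, fat genes, osteoblast factors, bone matrix, structural matrix, cadherins and junctions. The MSC I columns are red in the upper part of the fat block and blue at Dlx5, Dlx6, Postn, Cdh2 and Cdh3. The MSC IV columns at the right are red at Sp7, Phospho1 and Ibsp, where MSC I is not.

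Structural matrix genes were called in both directions, 7 higher and 4 lower of 26 tested, with a median of 0.53. Efemp1 (fibulin-3) read 13.08 and 12.91 in MSC I against 6.41 to 11.12 (median 8.37), a difference of 4.21 ± 0.41, and it varied by more than 4 log2 within the reference. The basement membrane chains Col4a1 and Col4a2, which share a promoter, differed by 1.78 ± 0.17 and 1.53 ± 0.16. Tenascin-C (Tnc) read 10.38 and 10.49 in MSC I against 11.80 to 12.88 (median 12.13), a difference of -1.83 ± 0.31, and Fbln5, an elastic fibre protein, differed by -1.74 ± 0.28. Tenascin-N (Tnn) was called lower at -1.72 ± 0.23. MSC III was high for it, at 10.59 and 10.20, and without MSC III in the reference it was -0.55 and not called. Without MSC III in the reference 2 of the 4 lower calls were left, and without MSC I replicate 1 the 7 higher calls became 4. Fibronectin (Fn1) and lysyl oxidase (Lox) differed by -0.22 ± 0.10 and 0.07 ± 0.11. When each preparation was 1 value, no gene of this list was called higher and 1 lower.

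In the cadherin and junction list, 2 of 13 tested genes were called lower, Cdh2 and Cdh3, and 2 higher. Cadherins join neighbouring cells through their partners, the catenins. Pcdh7, a protocadherin, read 10.57 and 10.40 in MSC I against 5.97 to 7.67 (median 6.57), a difference of 3.87 ± 0.33. Plakoglobin (Jup) was called at 1.54 ± 0.38, but not without MSC I replicate 1, at 1.09. Cdh11, the main cadherin of osteoblasts and fibroblasts, read 13.32 and 12.55 in MSC I against 10.67 to 13.18 (median 12.51) and differed by 0.80 ± 0.30. The catenins Ctnnb1 and Ctnna1 differed by -0.10 ± 0.09 and -0.12 ± 0.10, neither of them called.

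None of 14 tested smooth muscle genes was called higher and 2 were called lower, beside 6.62% and 4.88% of all tested genes. Neither of the 2 was called with each preparation as 1 value. Acta2 read 13.69 and 13.72 in MSC I against 13.49 to 13.67 (median 13.56), a difference of 0.13 ± 0.09. Tagln and Myl9 differed by 0.41 ± 0.14 and 0.44 ± 0.11. Calponin 1 (Cnn1) was called at -1.23 ± 0.29 but was at -0.78 without MSC I replicate 1, where it was not called. Smoothelin (Smtn) was called at -1.17 ± 0.23, but not once MSC I replicate 2 was left out (-1.03) or MSC II left out of the reference (-0.98). Of 13 CCN family genes and YAP targets none was called in either direction. Ankrd1, at 8.20 and 10.16 in MSC I against 7.005 to 12.32 (median 11.74), was low in MSC II and high in MSC III and MSC V, and was called lower at -2.83 without MSC II in the reference and at -2.21 without MSC I replicate 2. Ccn4 was also called lower once MSC II was left out, at -1.60, and Ccn3 higher once MSC V was left out, at 1.54. Ccn2 differed by 0.85 ± 0.42 and Ccn1 by -0.10 ± 0.24.

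Wnt antagonists and targets were called both ways, 6 higher and 4 lower of 16 tested genes. Without 1 that passed the filter through MSC I alone, 5 were called higher. With each preparation as 1 value 1 was called higher and none lower. Frzb, which binds Wnt proteins, read 11.11 and 10.06 in MSC I against 5.82 to 7.89 (median 6.87), a difference of 3.68 ± 0.50. Nkd1, an intracellular inhibitor that Wnt signals induce, and Dkk2 differed by 2.14 ± 0.24 and 2.13 ± 0.34. Sfrp2, a secreted Wnt binder, was lower, at 11.80 and 11.29 in MSC I against 12.48 to 13.63 (median 13.33), a difference of -1.69 ± 0.26. The ligand Wnt5a differed by -1.29 ± 0.22. Sfrp1 was called at 1.71 ± 0.32, but MSC II alone was low, at 7.04 and 7.66, and without it the difference was 0.56. Wnt10b was called lower at -1.50 ± 0.33 and not without MSC I replicate 2, at -0.94, and Dkk3 at -1.16 ± 0.26 and not, at -0.88, so that 2 of the 4 lower calls were left.

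In the BMP and TGF-beta list 4 of 16 tested genes were called higher and none lower, and 1 was called higher with each preparation as 1 value. Gremlin 1 (Grem1), which binds and blocks BMPs, read 10.70 and 11.94 in MSC I against 7.39 to 9.06 (median 8.05), a difference of 3.22 ± 0.37. The receptor Tgfbr1 differed by 1.29 ± 0.20. Bmp4 and the BMP target Id3 were not called, at -0.90 ± 0.23 and -0.94 ± 0.16, but Bmp4 was called lower at -1.37 without MSC II in the reference and Id3 at -1.18 without MSC I replicate 1. Id1 was called higher at 1.10 ± 0.26, and not without either MSC I array, at 1.07 and 1.13. Bmp6 was called at 1.27 ± 0.24 and lost the call without MSC I replicate 2, at 0.85. Of 11 insulin-like growth factor genes Igf2, a fetal growth factor, was called higher: it read 11.83 and 12.13 in MSC I against 5.91 to 10.26 (median 7.76), a difference of 4.16 ± 0.33. Igf2 was uneven within the reference, from 5.91 and 6.25 in MSC V to 10.26 and 8.95 in MSC III. The RNA-binding protein gene Igf2bp1 was called higher as well once MSC V was left out of the reference, at 1.60. Igf1 and Igf1r differed by 0.47 ± 0.28 and 0.02 ± 0.14. Igfbp6 and Igfbp5 were called lower at -1.59 ± 0.19 and -2.17 ± 0.65. Without MSC III in the reference, which was high for Igfbp6, these 2 genes were not called, at -0.50 and -1.71. No gene of the 11, Igf2 included, was called with each preparation as 1 value.

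Cartilage and tendon regulators were tested in 6 of 12 listed genes, of which 1 was called higher and 2 lower. With each preparation as 1 value, 1 was called higher and none lower. Sox9, the master factor of cartilage, was lower, at 7.80 and 7.45 in MSC I against 9.07 to 10.76 (median 9.65), a difference of -2.21 ± 0.22. Scleraxis (Scx), the tendon factor, read 5.59 and 5.67 in MSC I against 7.56 to 9.82 (median 8.89), a difference of -3.19 ± 0.36. Sox5 was higher, at 9.60 and 8.79 in MSC I against 6.14 to 7.69 (median 6.66). Acan, Comp and Tnmd were under the filter, and Col2a1 differed by -0.74 ± 0.20, close to the floor. Of 8 epithelial markers only Krt19 was tested: it read 9.20 and 10.47 in MSC I against 5.79 to 10.02 (median 7.81), overlapped MSC V and lost its call without MSC I replicate 2, at 1.43, and with MSC II left out of the reference, at 1.31. The summed level of the 8 epithelial markers was 9.80 to 10.76 in MSC I and 8.42 to 10.42 in the reference, and their part in the results was not tested.

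For Hox genes, which record the position along the body axis, the reference was not one group. Of 25 tested, 6 were called higher and 7 lower, but 19 of the 25 differed among MSC II, III and V themselves. By the same measure, a moderated F statistic with adjusted p under 0.05 and a range of at least 1 log2, 6.54% of all tested genes differed among them. No Hox gene was called with each preparation as 1 value. Of the 6 called higher, 1 had passed the filter through MSC I alone. Hoxc8 read 10.09 and 10.23 in MSC I, 9.50 and 9.95 in MSC II, 8.48 and 8.88 in MSC III and 6.18 and 6.14 in MSC V, and its difference of 1.97 ± 0.25 was 0.96, and not called, without MSC V in the reference. Hoxb9 read 5.83 and 6.42 in MSC I, 10.63 and 10.51 in MSC II, 6.09 and 6.46 in MSC III and 8.84 and 8.44 in MSC V, so that MSC I and MSC III overlapped. Hoxa11 was high in MSC V, at 9.28 and 9.25, and at 5.72 and 5.43 in MSC I. Without MSC II in the reference 10 Hox genes were called higher and 3 lower, and without MSC V 2 were called higher. Without MSC I replicate 1, 3 were called higher. For Hoxa3 and Hoxa2 both MSC I arrays were above all reference arrays, with differences of 1.24 ± 0.23 and 1.02 ± 0.12. Both lost the call without MSC I replicate 1, at 1.09 and 0.85.

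Genes of DNA replication and mitosis had a median difference of 0.56 over 29 tested genes, and none was called. Mki67, present in cycling cells, read 11.51 and 11.35 in MSC I against 8.07 to 11.31 (median 10.12), and Plk1, a mitotic kinase, 11.66 and 11.45 in MSC I against 8.03 to 11.65 (median 10.16). The reference arrays themselves ranged over about 3 log2 for Mki67, with MSC II lowest, and overlapped or came within 0.05 of MSC I for Mki67 and Plk1. The difference of Mki67 was 1.39 ± 0.55, Pcna differed by 0.14 ± 0.18 and Cdk1 by 0.08 ± 0.26. Without MSC II replicate 2 or without MSC V replicate 1, 3 of the 29 were called higher, and Plk1 was at 1.69 and 1.65. Without MSC III replicate 2 it was 2 of the 29. Of 13 cell cycle inhibitors and p53 targets, Cdkn1c (p57) was called higher at 1.37 ± 0.17, and Gadd45b at -1.67 ± 0.21 and Cdkn2b at -1.001 ± 0.15 lower. Cdkn1c had passed the filter through MSC I alone, and none of the 13 was called with each preparation as 1 value. Cdkn2b lies at the 1 log2 limit and lost its call without MSC I replicate 2, at -0.85, and with MSC II left out of the reference, at -0.83. Cdkn2c was called higher without MSC II replicate 2, at 1.10, and Trp53inp1 without MSC I replicate 2, at 1.59. Cdkn2a differed by -0.61 ± 0.16.

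Some of the called genes lie side by side. Windows of 10 neighbouring tested genes were ranked by their calls, as a description. The window with the most calls was on chromosome 2, where 8 of 10 neighbours were called higher. The share called higher was 11.7% on chromosome 2 and 6.62% over all tested genes. Because the windows were ranked by this count, the top one exceeds these shares by choice, and clustering was not tested. In it, Slc38a11, an amino acid transporter gene, read 10.13 and 10.07 in MSC I against 5.24 to 5.37 (median 5.31), Ifih1 differed by 3.94, and Fap, a surface protease of activated fibroblasts, read 9.16 and 8.63 in MSC I against 5.03 to 5.42 (median 5.23). The others were Grb14 at 2.37 ± 0.22, Gca at 2.21 ± 0.31, Cobll1 at 1.43 ± 0.18, Rbms1 at 1.37 ± 0.14 and Tank at 1.27 ± 0.12. The proteasome gene Psmd14 and Fign, in the same window, were not called, at 0.18 ± 0.09 and 0.74 ± 0.16. On chromosome 19 the Ifit genes stood beside Ch25h, an interferon-induced cholesterol hydroxylase, at 9.49 and 11.35 in MSC I against 5.08 to 8.71 (median 5.89), and 6 of 10 neighbours were called. On chromosome 7, 6 of 10 were called: Trim30a and its neighbours Trim30d (2.66 ± 0.20), Trim12a (2.41 ± 0.22), Trim12c (1.99 ± 0.12), Trim34a (1.54 ± 0.12) and Trim21 (1.66 ± 0.11). In the Hoxc cluster on chromosome 15, Hoxc13 and Hoxc12 differed by 2.75 ± 0.17 and 2.64 ± 0.27. On the lower side no window had more than 5 calls, the first on chromosome 10 with Adgrg6 at 5.92 and 6.79 in MSC I against 8.15 to 9.43 (median 8.94) and Nhsl1 at 6.09 and 6.09 in MSC I against 7.43 to 8.05 (median 7.77).

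Whole chromosomes also differed in their medians. Over 10954 genes with a position, in 20 chromosomes of 286 to 899 tested genes, the median difference ran from -0.45 on chromosome 10 to 0.35 on chromosome 2, beside -0.03 over all genes. On chromosome 2, 102 of 872 genes (11.7%) were called higher, against 6.62% over all genes, and on chromosome 10, 66 of 547 (12.1%) were called lower, against 4.88%. The array medians on chromosome 2 were 0.32 and 0.35 in MSC I and -0.06 to 0.09 on the reference arrays. On chromosome 10 they were -0.46 and -0.43 in MSC I and -0.21 to 0.31 in the reference. Both MSC I arrays were above all 6 reference arrays on 3 chromosomes, below them on 8 and within or overlapping their range on 9. With each array's chromosome medians removed, an alternative chosen after seeing the data, 659 genes were called higher and 469 lower. The part of these shifts in the results was not tested beyond that.

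**Figure D5:**
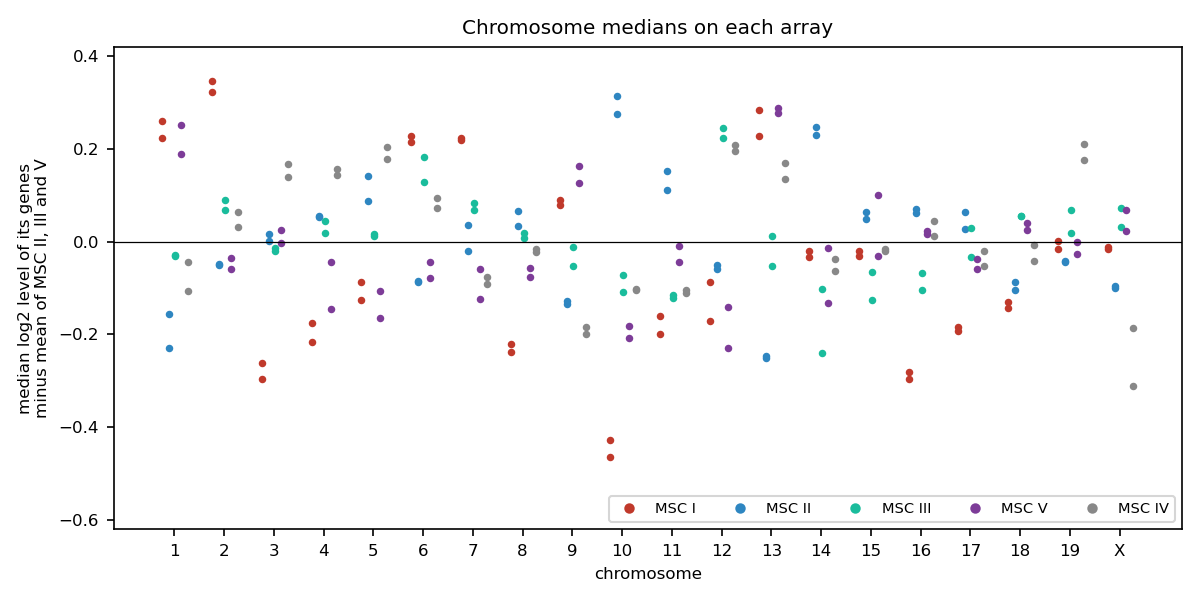
Median, over the tested genes of each chromosome, of the log2 level minus the mean of MSC II, III and V, for each of the 10 arrays, coloured by preparation. The red MSC I points lie above those of MSC II, III and V on chromosomes 2, 6 and 7, with 0.32 and 0.35 on chromosome 2, and below them on chromosome 10, at -0.46 and -0.43.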

How the data were processed

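RNA of 10 single-colour arrays was compared. The submitters' processing notes name RMA and Partek, and their versions are not given in the sources used here. Values deposited by the authors are on a log2 scale, 1 for each of 35399 probe sets and each array, with none missing. RMA corrects background, normalises arrays by quantiles and summarises probes, which compresses differences between low values. Array medians were 6.45 to 6.63, and precision is limited by how few arrays there are.

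In the platform annotation 21789 probe sets had 1 gene symbol, 1621 several and 11989 none. Those with 1 were used, 21698 of them matched to the mouse reference GRCm38.p6 for current symbols and chromosomes. For 999 genes with several probe sets the one with the highest mean was taken. All 10 arrays entered a limma fit of preparation means (version 3.58.1, R 4.3.3, lmFit then eBayes), so that MSC IV contributed to the spread and not to the difference. Tables and figures were made in Python 3.11.15. Promoter windows were those of RefSeq.

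The preparations compared and the 36 gene lists, with 621 entries, were chosen with earlier results of these data known. Of the entries 434 were tested, 139 were below the filter, 31 were not analysed here and 17 only shared probe sets. Text names list members, called members of the windows of neighbouring genes, and the 15 largest differences each way among called genes with both MSC I arrays outside the reference range. It also names the 10 largest of these each way with the MSC I mean and the reference mean above the table median. Predicted genes were left out. Fign and Psmd14, in a named window, were chosen after their values were seen. On simulated data for this difference, 84 of 100 genes changed by 1.5 log2 and 96 of 100 changed by 3 log2 were recovered among 10971. The simulated preparations differed only in the changed genes, with the spread between replicate arrays. The recovery therefore does not cover real differences among MSC II, III and V.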

Additional observations from a re-analysis of the deposited data

How the results depend on the processing

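The counts of genes called higher and lower, 726 and 535, changed by more than 1.5 times under 2 of the 23 alternatives. With each preparation as 1 value they were 219 and 56, and with a stricter low-value filter, at the table's upper quartile of 9.22 log2, they were 419 and 311, from 6940 tested genes. Leaving out 1 array in turn gave 624 to 767 higher and 482 to 549 lower. Same-numbered arrays did not deviate together in a steady way: the correlations of their deviations between preparations ran from -0.55 to 0.20. The strongest were negative, at -0.55 for MSC I with MSC II and -0.51 for MSC III with MSC V. Whether the replicate deviations share a pattern across preparations was not tested. With the replicate number as a block the counts were 697 and 510. Without MSC II, III or V in the reference, 676 to 776 genes were called higher and 490 to 608 lower, and with MSC IV in it 848 and 573. Of 492 genes named or listed, 224 were called, and none was reversed under any of these alternatives. With each preparation as 1 value 136 of the 224 lost their call, without MSC I replicate 1 it was 28, and without replicate 2 it was 30. Removing chromosome medians took the call from 23 and gave one to 9 others of the 492. Without MSC II in the reference, 27 lost a call and 17 gained one. Where an array was left out, the remaining array of its preparation was assumed to vary like the others. The lower side of the difference lay under the table median for 244 of the genes called higher and 252 of those called lower, where signal over background limits the fold.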

Other observations

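Of 15 tested glycolysis and hypoxia genes 3 were called lower and none higher, with a median of -0.24. None was called with each preparation as 1 value. The glucose transporter Slc2a3 read 6.50 and 6.53 in MSC I against 7.47 to 8.81 (median 8.44), a difference of -1.71 ± 0.11, and the phosphofructokinase subunit Pfkl read 9.55 and 9.44 in MSC I against 10.05 to 11.21 (median 10.93). Both MSC I arrays were below all reference arrays for both genes, and Pfkl was at -0.84 and not called once chromosome medians were removed. Egln3, an oxygen-sensing hydroxylase, was called at -1.34 ± 0.41 and lost its call without MSC I replicate 1, at -1.12, and without replicate 2, at -1.57. The enzymes Aldoa, Pkm and Ldha differed by 0.12 ± 0.10, -0.09 ± 0.11 and -0.20 ± 0.10, and the secreted factor Vegfa by 0.57 ± 0.16, none of them called.

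None of 12 cholesterol synthesis genes was called, with a median of 0.08, but Mvd was called lower without MSC II in the reference, at -1.05, and Idi1 higher without MSC V, at 1.28. Hmgcs1, an early enzyme of the pathway, read 11.53 and 10.50 in MSC I against 9.43 to 11.52 (median 10.48), with 1 log2 between the MSC I arrays. Of 17 antioxidant genes Sod3 was called higher at 1.42 ± 0.35 and Gsta4 and Gpx3 lower, at -1.21 ± 0.31 and -1.24 ± 0.31. All 3 lost their call with MSC II left out of the reference, at 0.74, -0.37 and -0.32, and also with each preparation as 1 value. Nqo1, a standard target of Nrf2, differed by -0.53 ± 0.23. Of 8 housekeeping genes none was called. Actb read 13.94 and 13.99 in MSC I against 13.84 to 13.93 (median 13.90), whereas Hprt and Tbp, at -0.58 ± 0.11 and -0.48 ± 0.09, were below all reference arrays on both MSC I arrays.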
